A study of Homo sapiens with 3 samples.

Results

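Type III interferon producing cells are described here as the cells that held at least 5 unique molecular identifiers (UMIs, each standing for 1 captured RNA molecule) summed over the lambda interferon genes IFNL1, IFNL2 and IFNL3. They were sought among barcodes that reached 1000 UMIs and 500 genes, with mitochondrial UMIs no higher than 20%, and 967 of 18510 such cells met the rule. They were compared with the 16162 cells of the same libraries that had 0 UMIs of these 3 genes, while 1381 cells with 1 to 4 UMIs lay in between and entered neither class. All cells came from FaDu (labelled Fadu), a human line of hypopharyngeal squamous carcinoma, or from a subline of it selected for resistance to TPF (paclitaxel with cisplatin and 5-fluorouracil). There were 3 droplet libraries, 1 per group: the FaDu library came from FaDu cells under cinobufotalin, a steroid of the bufadienolide class, the resistant TPF library from the subline under TPF, and the resistant combination library from the subline under both TPF and cinobufotalin. Every group had received at least 1 agent, the TPF-resistant cells are 1 derived line, and values below follow this order of libraries. With 1 library per group, nothing was tested between groups.

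Lambda interferons are antiviral cytokines made above all by epithelial cells. Sensors of double-stranded RNA such as RIG-I and MDA5 pass a signal through the adaptor MAVS to the kinases TBK1 and IKKε, which activate IRF3, IRF7 and NF-kB, and these factors switch on the lambda genes and IFNB1. The secreted protein binds a receptor of IFNLR1 and IL10RB, and the receptor's kinases activate ISGF3, a complex that includes STAT2 and IRF9 and induces interferon-stimulated genes in the producing cell and its neighbours. Some of those genes, among them IFIT2, OASL and CCL5, can also be switched on by IRF3 or NF-kB with no interferon in between.

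Of kept cells, 367 of 6123 were producers in the FaDu library, 240 of 4862 in the resistant TPF library and 360 of 7525 in the resistant combination library. These are shares of 5.99% (95% Clopper-Pearson interval 5.41 to 6.62), 4.94% (4.34 to 5.58) and 4.78% (4.31 to 5.29), and the intervals cover counting error only. The rule counts raw UMIs and therefore favours deep cells, and producers had a median of 30530, 30274 and 19598 UMIs against 24026, 27717 and 17802 in cells with 0 lambda UMIs. The upper quartiles were 46228, 36729 and 24812 against 30464, 33812 and 22255, so the FaDu producers held a tail of deep barcodes. No more than 2 times the library's median UMIs were held by 280, 234 and 330 producers, against 4987, 4319 and 6573 of the others. With every cell thinned to 5000 UMIs, which kept 5979, 4657 and 6954 cells and left out the shallower ones, 1.71% (1.39 to 2.07), 2.21% (1.81 to 2.68) and 2.13% (1.80 to 2.50) still held at least 5, and the FaDu library was then the lowest of the 3 rather than the highest. Cells with at least 1 lambda UMI after thinning made up 8.45%, 6.10% and 7.43%. No order of the libraries is read from these shares.

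**Figure D1:**
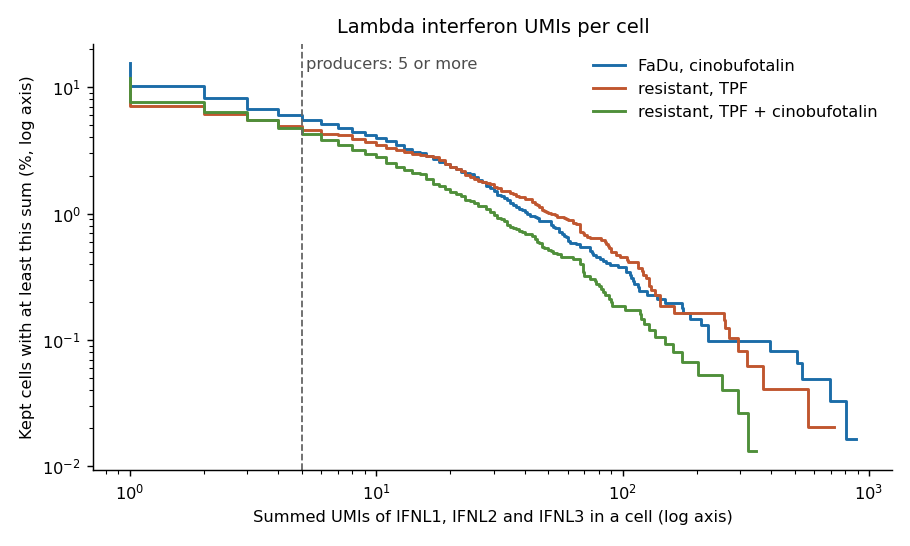
Share of kept cells (vertical, percent, log axis) with at least the summed number of IFNL1, IFNL2 and IFNL3 UMIs on the horizontal log axis, 1 line per library, with the dashed line at the rule's threshold of 5 UMIs. The lines fall without a step at the threshold, and the highest single cells held 887, 719 and 348 UMIs.

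Lambda RNA was unevenly spread among the producers, whose values here are a description because they chose the cells. Producers held 93.0%, 95.7% and 90.9% of all lambda UMIs of kept cells. Their median sum was 16, 19.5 and 12 UMIs, and the tenth of them with the highest sums held 55.2%, 49.2% and 46.3% of the producers' lambda UMIs. A sum of 50 or more was reached by 53, 50 and 40 cells, and 100 or more by 23, 22 and 14. Just outside the threshold were 42, 27 and 56 cells with exactly 4 UMIs and just inside it 29, 17 and 38 with exactly 5, so the threshold divides a continuous range.

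IFNL1, the lambda gene also called interleukin 29, supplied 11077, 8683 and 7588 of the producers' UMIs, or 82.9%, 84.9% and 82.7%. IFNL2 supplied 981, 627 and 623 UMIs and IFNL3 supplied 1308, 912 and 969. A molecule of IFNL1 was seen in 363, 238 and 357 producers, IFNL2 in 119, 81 and 129 and IFNL3 in 147, 93 and 157. IFNL1 was the lone lambda gene seen in 186, 124 and 156 producers, and all of IFNL1, IFNL2 and IFNL3 were seen in 84, 57 and 82. IFNL4, the remaining human lambda gene, had 3, 1 and 0 UMIs. IFNL2 and IFNL3 are near-identical copies, so the split of molecules between them is uncertain.

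The sequences upstream of these genes are shown because the lambda genes and IFNB1 are switched on together by IRF factors and NF-kB. Each is the 250 bases before the first annotated start in RefSeq GRCh38.p14, 5′ to 3′ on the gene's own strand, with capitals marking matches on either strand to the IRF-type motif GAAANNGAAA or to the NF-kB consensus. IFNL1 lies on the plus strand of chromosome 19 with its window at chr19:39296157-39296406, IFNL2 on the plus strand at chr19:39268146-39268395, IFNB1 on the minus strand at chr9:21077943-21078192 and CXCL10 on the minus strand at chr4:76023498-76023747.
IFNL1: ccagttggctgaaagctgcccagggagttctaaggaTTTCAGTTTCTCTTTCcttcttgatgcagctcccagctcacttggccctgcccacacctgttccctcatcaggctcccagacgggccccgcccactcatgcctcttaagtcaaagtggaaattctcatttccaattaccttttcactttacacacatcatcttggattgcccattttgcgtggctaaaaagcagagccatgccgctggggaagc
IFNL2: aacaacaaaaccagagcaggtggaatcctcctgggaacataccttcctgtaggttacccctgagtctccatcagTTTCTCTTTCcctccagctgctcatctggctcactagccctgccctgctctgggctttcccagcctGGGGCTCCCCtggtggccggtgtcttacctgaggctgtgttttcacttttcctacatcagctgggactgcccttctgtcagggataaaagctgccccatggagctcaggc
IFNB1: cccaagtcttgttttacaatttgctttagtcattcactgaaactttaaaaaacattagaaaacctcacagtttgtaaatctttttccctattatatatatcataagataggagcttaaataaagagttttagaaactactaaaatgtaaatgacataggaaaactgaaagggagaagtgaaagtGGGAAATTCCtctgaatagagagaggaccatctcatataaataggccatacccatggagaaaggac
CXCL10: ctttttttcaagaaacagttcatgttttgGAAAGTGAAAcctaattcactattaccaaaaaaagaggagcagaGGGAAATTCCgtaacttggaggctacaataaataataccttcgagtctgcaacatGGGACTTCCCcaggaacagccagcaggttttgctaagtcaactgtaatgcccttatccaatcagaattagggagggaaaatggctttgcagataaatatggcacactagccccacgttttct
The IFNL1 window held 2 overlapping IRF-type matches, 214 to 205 and 208 to 199 bases before the start, and no NF-kB match. The IFNL2 window held 1 IRF-type match, 176 to 167 bases before the start, and a palindromic NF-kB match at 110 to 101, which counts on both strands. The window of IFNL3, on the minus strand at chr19:39245251-39245500, differed from that of IFNL2 at 1 of 250 positions, C31T counted from 1 at the 5′ end, and held the same matches. IFNB1 had an NF-kB match at 66 to 57 and no match to this spelling of the IRF motif, while CXCL10 had 1 IRF-type match at 221 to 212 and NF-kB matches at 177 to 168 and 122 to 113. Of the 35116 RefSeq windows of this length, 3.02% held the IRF-type motif and 9.96% the NF-kB consensus. A match is a run of letters and not a shown binding site.

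Producers carried most of the interferon beta RNA as well. IFNB1, the type I interferon made by most cell types after sensing of viral RNA, stood at 19.4, 25.7 and 11.5 CPM in producers (CPM, the UMI count of the summed cells relative to a fixed total of 1000000, scaled by the trimmed mean of M values, TMM) against 0.0596, 0.232 and 0.121 CPM in cells with 0 lambda UMIs. Levels did not overlap between the classes, and how many of all genes do so was not counted. The log2 ratio was 7.06 ± 0.22 (SE from the fit described below). IFNB1 passed the filter on low levels described below only through the producers, so it had to differ and no p is given for it. With every gene of at least 1 UMI kept, its ratio was 6.99. An IFNB1 molecule was seen in 37, 32 and 42 producers, or 10.1%, 13.3% and 11.7%, against 7, 28 and 13 of the cells with 0 lambda UMIs, or 0.135%, 0.644% and 0.196%. After thinning to 5000 UMIs the shares were 4.37%, 7.14% and 6.0% against 0.0397%, 0.193% and 0.0490%. Producers held 95.2%, 83.7% and 75.9% of the IFNB1 UMIs of all kept cells. The 5 producers with the most IFNB1 in each library held 58.8%, 62.3% and 39.6% of the producers' IFNB1 UMIs. Of the 17 other type I and II interferon genes searched, none reached the level tested, and none of the 13 interferon alpha genes exceeded 3 UMIs in a class of a library. No cell type known to lack these RNAs was present, so the share that free RNA gives was not measured.

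IFNB1 was concentrated among the producers with the most lambda RNA. In producers with 5 to 9 lambda UMIs it stood at 1.10, 2.56 and 2.90 CPM (here unscaled) and in those with 10 to 49 at 2.58, 5.92 and 8.61 CPM. In producers with 50 or more it stood at 87.8, 114 and 59.7 CPM, and 41.5%, 40.0% and 32.5% of these cells held an IFNB1 molecule. All 3 libraries rose most steeply at this last step, where median depth was 37670, 31118 and 20815 UMIs against 31575, 28702 and 18756 in the bin before. The part of depth in the detected shares was not tested.

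Across the genes tested, producers differed widely from cells with 0 lambda UMIs, mostly by small amounts. UMIs were summed per library and class, IFNL1 to IFNL3 were taken out, and 10213 genes with a mean of at least 5 CPM were fitted with edgeR's quasi-likelihood test with library as a block and Benjamini-Hochberg adjustment. At adjusted p under 0.05, 1555 genes (15.2%) were called higher, 1357 (13.3%) lower and 2912 (28.5%) in either direction, and the median log2 ratio of all genes was -0.0084. By at least 2-fold, 102 genes were higher and 6 lower, and by at least 4-fold 21 were higher. Of the 102 genes 30, and of the 21 genes 11, had a mean under 5 CPM in cells with 0 lambda UMIs, so they passed the filter only through producers and had to differ. The ratios of those named here (IFNB1, CCL4L2, CCL3L1, KRT6B, RAET1L, FAP, SCN3A, LRP1B, COL8A1, IL15 and GBP3) are a description. The p-values and SEs come from edgeR, which shares information on spread between genes. They are therefore not each gene's own spread over these 3 libraries, which differ in line and treatment. Without the FaDu library the counts were 965 higher and 520 lower, without the resistant TPF library 2168 and 2073, and without the resistant combination library 442 and 342. Without scaling factors 541 were called higher and 3480 lower (13.5% of calls higher against 53.4%), as the median gene then lay at -0.18, so small shifts of either sign rest on the scaling. Against 5 comparison cells per producer matched on UMIs, 1028 were called higher and 821 lower, with ratios of 4.06 for CCL5, 2.48 for IFIT2, 2.17 for IFIH1 and 7.54 for IFNB1. Without the library block 12 were called higher and 0 lower by edgeR (547 at an unadjusted p under 0.05), and of the 96 called genes that the naming rule covers 9 stayed called: IFNB1, CCL4L2, CCL3L1, CCL5, CXCL10, CXCL11, OASL, KRT6B and RAET1L.

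Producers were epithelial cells by their markers. All 12 squamous epithelial markers were measured in every class, with a summed level of 4685 to 10798 CPM in producers and 3462 to 7876 CPM in cells with 0 lambda UMIs. Of these markers 4 were called higher (KRT6A, KRT14, KRT17 and SFN), against 15.2% of all genes. Plasmacytoid dendritic cells, the immune cells best known for interferon, and myeloid cells were represented by 12 markers. Their summed level was 13.7, 11.2 and 11.1 CPM in producers against 11.3, 10.5 and 9.30 CPM, higher in producers in every library. Among them 5, 4 and 6 were at 0 UMIs in producers, with LILRA4, FCGR3A and LYZ at 0 in all 3 libraries. The rest gave 169, 94 and 97 UMIs. The 10 lymphoid markers summed to 1.54 to 5.14 CPM against 1.03 to 2.07 CPM, with PTPRC, CD3D, CD3E and MS4A1 at 0 in all producers. KLRD1, a receptor chain of natural killer cells, gave 15 of the 19, 40 of the 43 and 31 of the 36 lymphoid marker UMIs of producers, and stood at 1.21, 4.78 and 3.54 CPM against 0.690, 1.77 and 1.65 CPM. The 7 fibroblast markers summed to 2.50, 4.06 and 3.89 CPM against 2.31, 3.04 and 2.92 CPM, higher in producers in every library. COL1A2, DCN and LUM were at 0 in all producers, and the rest gave 31, 34 and 34 UMIs. The 5 endothelial markers summed to 3.20 to 5.74 CPM against 3.93 to 5.92 CPM, and the 5 erythroid markers to 8.89 to 9.48 CPM against 6.46 to 10.4 CPM. In the FaDu library the nuclear RNA MALAT1 made up a median of 0.0305% of UMIs in producers against 0.104% in cells with 0 lambda UMIs, against 0.819% and 0.796% in the resistant TPF library and 0.558% and 0.751% in the resistant combination library. Mitochondrial UMIs were at a median of 2.77% against 3.91% in the FaDu library, 4.31% against 3.95% and 3.73% against 3.74% in the others. Their lower quartiles were 0.518%, 3.13% and 2.26% in producers against 2.07%, 2.84% and 2.69%. The part of these differences in the results was not tested. No barcode was shared between libraries among producers, and 9, 13 and 10 were shared between pairs of libraries among kept cells.

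Besides the lambda genes, CCL5, IFIT2 and IFIH1 were named as markers of these cells with results of these data known, so their high level is a description of that choice and no independent support. They are also members of gene lists below, which were likewise chosen with earlier results of these data known. CCL5 counts among the chemokines, IFIT2 among genes that IRF3 can induce, and IFIH1 among the sensors and the ISGF3 genes. CCL5, a chemokine that draws T cells and monocytes, stood at 287, 440 and 319 CPM in producers against 26.8, 18.9 and 18.5 CPM, a log2 ratio of 4.02 ± 0.14 (edgeR adjusted p = 1.64e-16). The CCL5 ratio was large within each library, at 3.42, 4.54 and 4.11 on the log2 scale, and 67.3%, 73.8% and 72.8% of producers held a CCL5 molecule against 10.6%, 9.23% and 8.33% of the others. Thinned to 5000 UMIs, those shares were 39.3%, 57.1% and 50.9% against 4.88%, 4.55% and 4.32%. IFIT2, which binds viral RNA and restrains its translation, stood at 489, 1223 and 880 CPM against 133, 173 and 153 CPM (log2 ratio 2.41 ± 0.14, edgeR adjusted p = 1.35e-12). IFIH1, which encodes the double-stranded RNA sensor MDA5, stood at 61.1, 174 and 132 CPM against 22.6, 31.9 and 26.0 CPM (2.09 ± 0.13, edgeR adjusted p = 5.73e-12). For both genes the FaDu producers were the lowest of the 3, yet above every class of cells with 0 lambda UMIs. How many of all genes separate in this way was not counted.

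**Figure D2:**
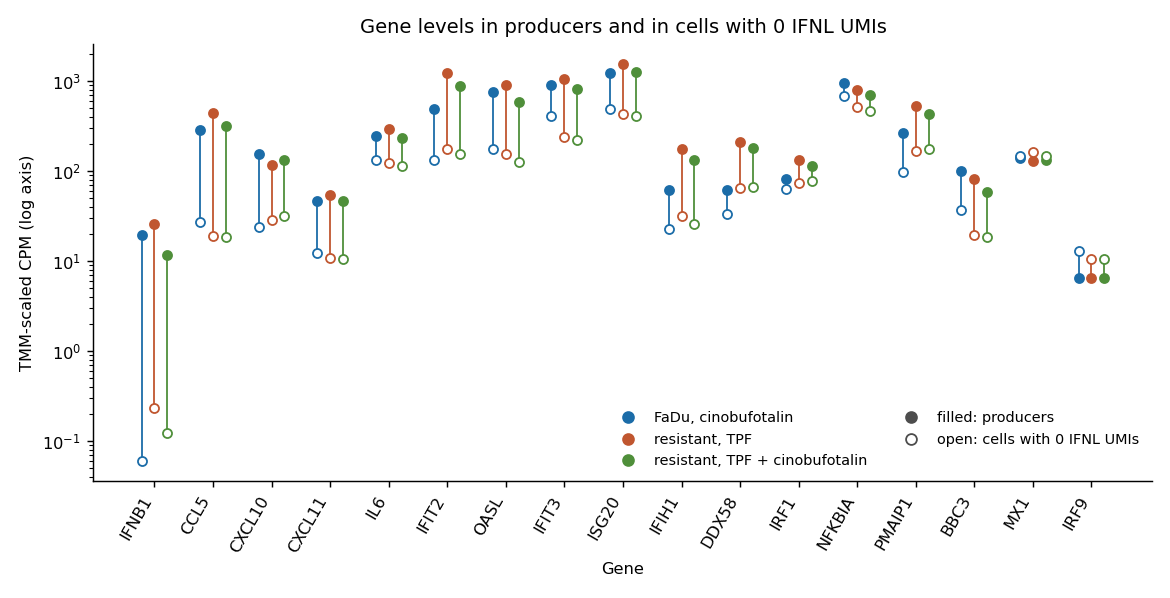
TMM-scaled CPM (vertical, log axis) of 17 genes in producers (filled points) and in cells with 0 lambda UMIs (open points), 1 colour per library and a line joining the classes of a library. IFNB1, CCL5 and the genes up to BBC3 lie higher in producers in every library, MX1 nearly coincides, and IRF9 lies lower, at 6.46, 6.45 and 6.51 CPM against 13.0, 10.6 and 10.5 CPM.

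Among nucleic acid sensors and adaptors, 6 of 14 tested members were called higher and 2 lower, against 15.2% and 13.3% of all genes, with a median log2 ratio of 0.22. After IFIH1 the largest ratio was that of DDX58, which encodes RIG-I, at 62.0, 207 and 181 CPM in producers against 33.4, 64.7 and 65.7 CPM (1.35 ± 0.11, edgeR adjusted p = 1.03e-09). DHX58, which encodes LGP2, the regulator of MDA5 and RIG-I, stood at 14.1, 17.2 and 12.3 CPM against 7.92, 5.39 and 4.57 CPM (1.29 ± 0.13, edgeR adjusted p = 1.05e-07). The RNA helicase ZNFX1, an antiviral sensor on mitochondria, was higher by 0.96 on the log2 scale. The members called lower were CGAS, the DNA sensor, at -0.30, and EIF2AK2, which encodes the kinase PKR, at -0.29. MAVS, the adaptor of RIG-I and MDA5, was not called, at 9.45, 8.01 and 8.0 CPM against 10.2, 9.99 and 9.69 CPM (log2 ratio -0.23 ± 0.12, edgeR adjusted p = 0.151). TLR3, the endosomal sensor of double-stranded RNA, was below the level tested, with 50, 19 and 24 UMIs in producers.

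Kinases and transcription factors that act between the sensors and the interferon genes mostly showed small ratios. Of 20 tested, 7 were called higher and 1 lower, against 15.2% and 13.3% of all genes, with a median of 0.14. IRF1 stood at 80.6, 131 and 113 CPM against 62.3, 73.0 and 78.2 CPM (0.58 ± 0.09, edgeR adjusted p = 5.81e-05) and BATF3, a leucine zipper factor, was higher by 1.03 on the log2 scale. IRF3 (0.37, edgeR adjusted p = 0.00421), IRF7 (0.28, edgeR adjusted p = 0.0208) and IKBKE, which encodes IKKε (0.41, edgeR adjusted p = 0.0302), were called higher, but all 3 calls were lost without the resistant combination library (the lowest ratios over all settings were 0.20, 0.10 and 0.16). TBK1 was called lower, at -0.34 (edgeR adjusted p = 0.00854). These are RNA levels, and the activity of the proteins was not measured.

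Of the NF-kB feedback and target genes, 12 of 18 tested were called higher, against 15.2% of all genes, with the other 6 not called and a median of 0.42. NFKBIA, the inhibitor that NF-kB itself induces, stood at 938, 790 and 706 CPM against 674, 516 and 464 CPM (0.56 ± 0.11, edgeR adjusted p = 0.000559). TNFAIP3, the ubiquitin-editing brake A20, stood at 377, 454 and 517 CPM against 346, 296 and 376 CPM (0.40 ± 0.11, edgeR adjusted p = 0.00805). The largest ratios were those of the cytokine LTB (0.93), the apoptosis inhibitor BIRC3 (0.79), the A20 partner TNIP1 (0.77) and CD83 (0.63). None of the 18 reached 2-fold.

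Chemokines and cytokines held several of the largest differences, with 14 of 21 tested called higher, against 15.2% of all genes. The other 7 were not called, and the median was 0.58. Without IL15, which passed the filter only through producers, 13 of 20 were called higher and the median was 0.48. CXCL10, which draws T cells through CXCR3, stood at 156, 115 and 132 CPM against 23.8, 28.2 and 31.8 CPM (2.27 ± 0.11, edgeR adjusted p = 4.32e-14). CXCL11, a ligand of the same receptor, stood at 46.5, 54.3 and 45.8 CPM against 12.2, 10.7 and 10.6 CPM (2.13 ± 0.09, edgeR adjusted p = 9.2e-15). The summed levels of the 3 libraries did not overlap between producers and other cells for either gene, and how many of all genes do so was not counted. In producers with 5 to 9 lambda UMIs, CXCL10 was at 151, 28.2 and 102 CPM (unscaled) against 21.1, 33.5 and 36.3 CPM in cells with 0. It was thus lower there in the resistant TPF library. CSF3, the granulocyte growth factor, was higher by 1.64, IL15, a growth factor of natural killer cells, by 1.47 and IL6 by 1.07 on the log2 scale. CXCL8, the neutrophil chemokine, was at 656, 765 and 644 CPM against 680, 778 and 692 CPM and was not called (-0.06, edgeR adjusted p = 0.692). Of the 12 members below the level tested, CCL3 had 53, 114 and 34 UMIs in producers and CXCL9 18, 24 and 13.

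The macrophage inflammatory chemokines came from very few cells. CCL4L2, a copy of CCL4, had a fitted log2 ratio of 7.43 ± 0.21, at 9.94, 21.5 and 18.9 CPM against 0.0681, 0.120 and 0.0982 CPM. It was seen in 14, 11 and 11 producers, or 3.81%, 4.58% and 3.06%, and the 5 highest cells of each library held 87.8%, 90.6% and 85.5% of its UMIs. CCL3L1, a copy of CCL3, was higher by 6.61 ± 0.30 and was seen in 23, 12 and 11 producers. Reads of these copies and of CCL4 and CCL3 can be split between near-identical genes, so their single levels are uncertain. By contrast CXCL10 was seen in 46.9%, 42.9% and 42.2% of producers, and its 5 highest cells held 30.0%, 29.8% and 24.0% of its UMIs.

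Genes that IRF3 can induce directly as well as through interferon had a median of 1.48 over 12 tested members, the largest among the lists with at least 2 tested. Against 15.2% of all genes, 10 of these were called higher, 9 of them by at least 2-fold. IFIT5 and NCOA7 were not called. OASL, a member of the oligoadenylate synthetase family that enhances RIG-I, stood at 758, 899 and 583 CPM against 176, 155 and 125 CPM (2.29 ± 0.11, edgeR adjusted p = 6.56e-14). IFIT3, a partner of IFIT2, stood at 899, 1049 and 823 CPM against 411, 239 and 221 CPM (1.72 ± 0.14, edgeR adjusted p = 1.8e-09), with the smallest gap in the FaDu library. The exonuclease ISG20 was higher by 1.62, HERC5, the ligase that attaches ISG15 to proteins, by 1.59, the CpG-binding antiviral protein ZC3HAV1 by 1.5, viperin (RSAD2) by 1.31 and IFIT1 by 1.03 on the log2 scale. ISG15, the ubiquitin-like protein, stood at 9141, 5280 and 5073 CPM against 5606, 2704 and 2559 CPM (0.88 ± 0.15, edgeR adjusted p = 0.000208). CH25H was below the level tested.

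Genes induced by interferon through ISGF3 mostly showed small ratios. Of 40 tested, 15 were called higher and 1 lower, against 15.2% and 13.3% of all genes, with a median of 0.13, and IFIH1 was the member called higher by at least 2-fold. MX1, the dynamin-like antiviral GTPase used as a marker of interferon response, stood at 139, 128 and 133 CPM in producers against 145, 163 and 148 CPM and was not called (-0.19 ± 0.09, edgeR adjusted p = 0.102), though it was called lower without scaling factors (-0.37) and among genes with a mean of at least 20 CPM (-0.23). Producers lay below the other cells of their own library for MX1 in all 3 libraries. The next largest ratios of the list were RTP4 (0.86), IFI44 (0.77) and PARP14 (0.67), while MX2 (-0.11), IFI6 (0.02) and IFI44L (-0.19) were not called. IRF9, the DNA-binding subunit of ISGF3, was the member called lower (-0.83 ± 0.13, edgeR adjusted p = 4.27e-05), though not after thinning, where the ratio was -0.64.

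**Figure D3:**
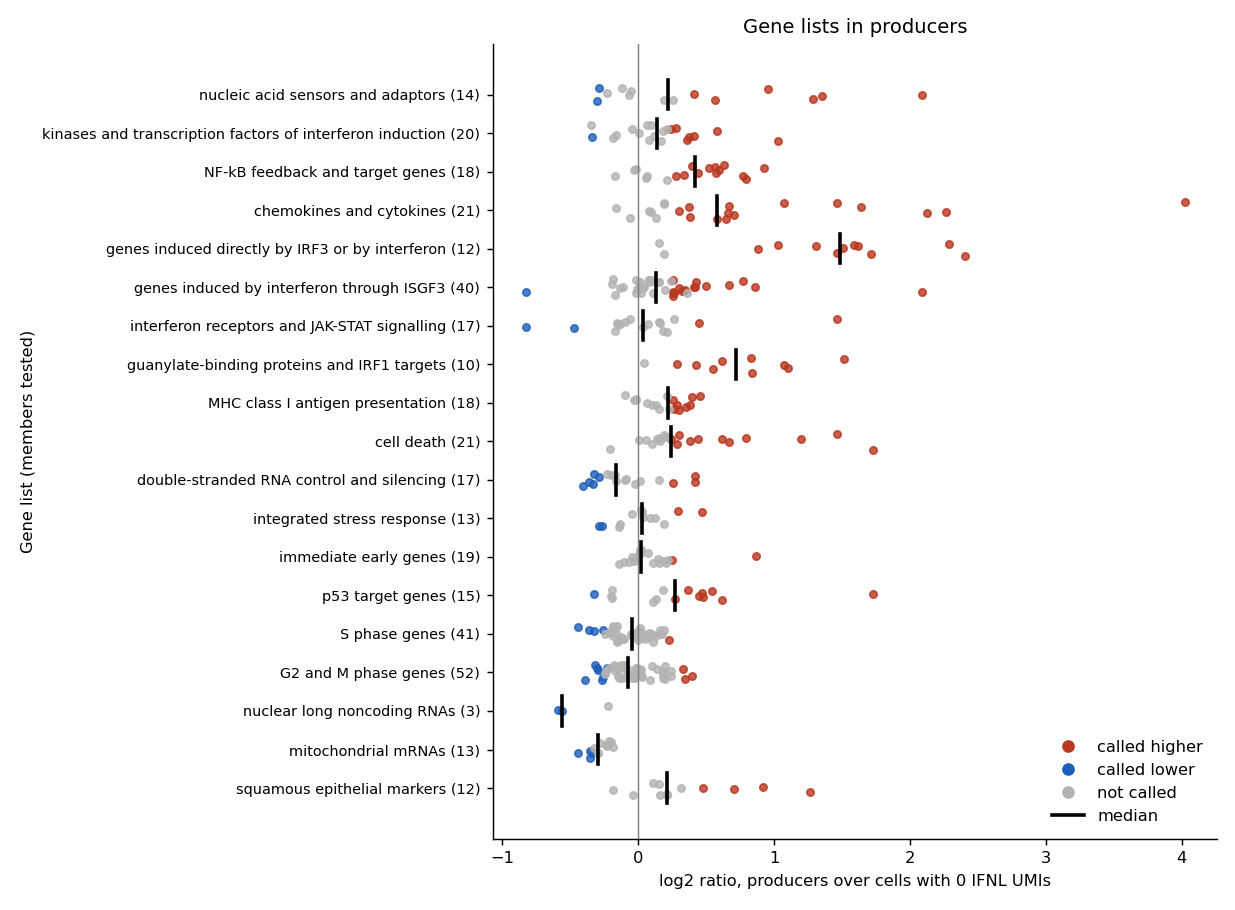
Log2 ratio of producers over cells with 0 lambda UMIs (horizontal) for the tested members of 19 gene lists (rows, with the number tested), 1 point per gene, red where called higher, blue where called lower and grey where not called, with a black bar at the median. Genes induced directly by IRF3 or by interferon have their median at 1.48, and genes induced through ISGF3 at 0.13.

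Receptors and their signalling parts gave 2 of 17 tested members called higher and 2 lower, against 15.2% and 13.3% of all genes, with a median of 0.04. JAK2, a kinase of cytokine receptors, stood at 21.4, 45.2 and 51.8 CPM against 8.59, 16.2 and 17.2 CPM (1.47 ± 0.09, edgeR adjusted p = 5.35e-12), and SOCS1, the feedback inhibitor, was higher by 0.45. Besides IRF9, PIAS1, an inhibitor of this signalling, was lower, at -0.47. IFNLR1, the specific chain of the lambda receptor, was below the level tested, with 25, 22 and 10 UMIs in producers and 282, 378 and 377 in the other cells. IL10RB, the shared chain, was at 11.2, 10.4 and 9.14 CPM against 10.2, 8.41 and 8.29 CPM and was not called (0.18 ± 0.12, edgeR adjusted p = 0.235).

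Guanylate-binding proteins and other targets of IRF1 had 9 of 10 tested members called higher, against 15.2% of all genes, and a median of 0.72. Without GBP3, which passed the filter only through producers, these were 8 of 9 and 0.62. GBP4, a GTPase that acts on pathogens inside cells, stood at 18.7, 28.3 and 25.7 CPM against 12.1, 7.08 and 6.67 CPM (1.51 ± 0.16, edgeR adjusted p = 2.26e-07). The apolipoprotein APOL1 was higher by 1.10, the tryptophanyl tRNA synthetase WARS by 1.07 and GBP3 by 0.84 on the log2 scale. For GBP4 and APOL1 the FaDu library showed the smallest gap. Of 18 tested genes of MHC class I antigen presentation, which displays peptides to CD8 T cells, 8 were called higher, against 15.2% of all genes. The other 10 were not called, the median was 0.22 and none reached 2-fold. The largest were the immunoproteasome subunit PSMB9 (0.45), B2M (0.40), PSME2 (0.38) and PSME1 (0.35), and all 4 calls were lost without the FaDu library or without the resistant combination library.

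Cell death genes had 11 of 21 tested members called higher, against 15.2% of all genes, with the other 10 not called and a median of 0.24. Those that rose included genes that promote death and genes that oppose it. BBC3, which encodes the pro-apoptotic protein PUMA, stood at 99.8, 81.9 and 58.5 CPM against 36.5, 19.3 and 18.4 CPM (1.73 ± 0.10, edgeR adjusted p = 3.04e-12). PMAIP1, which encodes NOXA and is also induced by IRF3, stood at 265, 528 and 425 CPM against 96.7, 167 and 177 CPM (1.46 ± 0.10, edgeR adjusted p = 6.62e-11). The lowest summed producer value of each gene was above the highest summed value of the other cells, and how many of all genes do so was not counted. BCL2A1, which opposes apoptosis, was higher by 1.2 and BIRC3 by 0.79 on the log2 scale. Of 15 tested p53 target genes 8 were called higher and 1 lower, against 15.2% and 13.3% of all genes, with a median of 0.27. Those called higher included FAS (0.62), MDM2 (0.54) and the cell cycle inhibitor CDKN1A (0.37, edgeR adjusted p = 0.00706). The CDKN1A call was lost without the FaDu or the resistant combination library. XPC, a DNA damage recognition gene, was the member called lower (-0.32).

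Other programs showed small ratios in both directions. Of 17 genes that limit or silence double-stranded RNA, 3 were called higher and 5 lower, against 15.2% and 13.3% of all genes, with a median of -0.16. All of the 3 RNase H2 subunits rose, RNASEH2A and RNASEH2C by 0.42 each, while FAM208A of the silencing complex HUSH (-0.41), the mitochondrial helicase SUPV3L1 (-0.36) and the helicase DHX9 (-0.33) were lower. The calls of RNASEH2A, RNASEH2C, FAM208A and SUPV3L1 were lost without the resistant combination library and those of RNASEH2C and SUPV3L1 without the FaDu library. In thinned cells RNASEH2A, FAM208A and SUPV3L1 were not called, SUPV3L1 at -0.14. ADAR, the editing enzyme that marks RNA as self, was not called (-0.16, edgeR adjusted p = 0.142). Integrated stress response genes gave 2 of 13 higher and 2 lower, close to the shares of all genes, led by PPP1R15A (0.47). Immediate early genes gave 2 of 19 higher, below the share of all genes, led by ZFP36, which speeds the decay of cytokine RNA (0.87). Of 41 S phase genes 1 was higher and 4 lower, while the 52 genes of G2 and M phase gave 3 higher and 7 lower, shares close to or below those of all genes. MKI67, the proliferation marker, stood at 37.9, 90.0 and 64.4 CPM against 40.8, 85.9 and 75.9 CPM and was not called (-0.09, edgeR adjusted p = 0.441).

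Some nuclear and mitochondrial RNAs were called lower in producers, and those calls were lost without the FaDu library. MALAT1 stood at 1424, 8326 and 5661 CPM against 3452, 8312 and 7954 CPM, a fitted log2 ratio of -0.59 (edgeR adjusted p = 0.0251). The resistant TPF library showed no difference for MALAT1, and without the FaDu library the ratio was -0.24 and not called. NEAT1, another nuclear RNA, was at -0.56, and that call was lost without the FaDu library as well. Of 13 mitochondrial mRNAs 4 were called lower, against 13.3% of all genes, with a median of -0.29. The other 9 were not called, and the 4 calls were also lost without the FaDu library. Neither MALAT1 nor these 4 stayed called against comparison cells matched on UMIs, or without cells over 2 times the median UMIs. The calls of MT-ND1, MT-ND4L and MT-ATP8 were lost without the resistant combination library as well. Producers lay below the other cells for all 13 in the FaDu and the resistant combination libraries, but above them for 11 of 13 in the resistant TPF library, where the median ratio was 0.13 against -0.69 and -0.25. Leaving the FaDu library out gave ratios of 4.33 for CCL5, 2.68 for IFIT2, 2.40 for IFIH1 and 6.71 for IFNB1.

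Among the 12 highest ratios that the naming rule gave, 8 were neither interferons nor chemokines. KRT6B, a keratin of activated keratinocytes, stood at 12.8, 23.1 and 14.7 CPM against 0.809, 0.619 and 0.657 CPM (log2 ratio 4.57 ± 0.19), and its close copy KRT6A was higher by 1.26. RAET1L, a ligand of the natural killer cell receptor NKG2D, stood at 11.9, 19.5 and 14.1 CPM against 0.971, 1.85 and 1.62 CPM (log2 ratio 3.36 ± 0.15). Both were higher in every library. The 5 highest producers of each library held 66.5%, 38.9% and 40.3% of the producers' KRT6B UMIs. KRT6B and RAET1L passed the filter only through producers, as did FAP, SCN3A, LRP1B and COL8A1, so these ratios are a description. FAP, a membrane protease, was higher by 3.81, the sodium channel gene SCN3A by 4.68, the giant lipoprotein receptor gene LRP1B by 3.22, the histamine receptor HRH2 by 2.62 and the collagen gene COL8A1 by 2.45 on the log2 scale. SCN3A and LRP1B are long genes, and since it is not known whether intronic reads were counted, their levels are uncertain. SCN3A was seen in 26, 57 and 51 producers, or 7.08%, 23.8% and 14.2%. PI3, which encodes the protease inhibitor elafin, had a fitted ratio of 2.69, but 1 producer held 76.3% of its UMIs in the FaDu library and the ratio without that library was 1.55.

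The lowest ratios were small beside these. HAS2, which makes hyaluronan, stood at 4.44, 3.47 and 5.26 CPM against 9.78, 8.81 and 11.8 CPM (-1.2 ± 0.14). HAS2, VGLL3, HIF1A-AS2 and IDI2-AS1 passed the filter only through the cells with 0 lambda UMIs, so their ratios are a description. The interleukin 18 receptor gene IL18R1 was at -1.11, the transcription cofactor VGLL3 at -1.07, NHS at -1.04, MACC1 at -1.0 and the phosphatase INPP4B at -1.0. The collagenase-activating protease MMP3 was at -1.13 by edgeR, a call that DESeq2 did not make. The rest of the 12 lowest were HIF1A-AS2, IDI2-AS1, KRTAP4-8, RNF103-CHMP3 and COG5, at -1.18 to -0.88. HIF1A-AS2 and IDI2-AS1 are antisense genes and RNF103-CHMP3 is a readthrough of its neighbours, so without knowing whether strand was used their reads cannot be assigned.

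Levels of several genes also followed the amount of lambda RNA, both in the 1 to 4 UMI cells that no class used and within the producers. From 0 to 1 to 4 lambda UMIs, CCL5 went from 23.8, 22.4 and 21.1 CPM (unscaled) to 84.4, 106 and 97.9 CPM. Over the bins of 5 to 9, 10 to 49 and 50 or more it was at 158, 151 and 633 CPM in the FaDu library, 271, 441 and 882 CPM in the resistant TPF library and 165, 303 and 910 CPM in the resistant combination library. CCL5 thus climbed at every step but 1, from 5 to 9 to 10 to 49 in the FaDu library. IFIT2 was at 198, 583 and 526 CPM in cells with 1 to 4 lambda UMIs and reached 725, 1840 and 1687 CPM at 50 or more. IFIH1 rose at every step in each library, from 20, 38 and 29.6 CPM at 0 to 89.5, 273 and 223 CPM at 50 or more. IRF9 fell from 11.6, 12.6 and 12 CPM at 0 to 6.06, 6.15 and 7.11 CPM at 5 to 9 and was at 4.16, 9.78 and 4.78 CPM at 50 or more, so the resistant TPF library was higher again there, on 16 UMIs. MX1 was at 129, 194 and 168 CPM at 0 and at 129, 105 and 168 CPM at 50 or more, with no rise in any library. Across the threshold IFIT2 was at 308, 669 and 759 CPM with exactly 4 lambda UMIs and 385, 812 and 826 CPM with exactly 5.

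**Figure D4:**
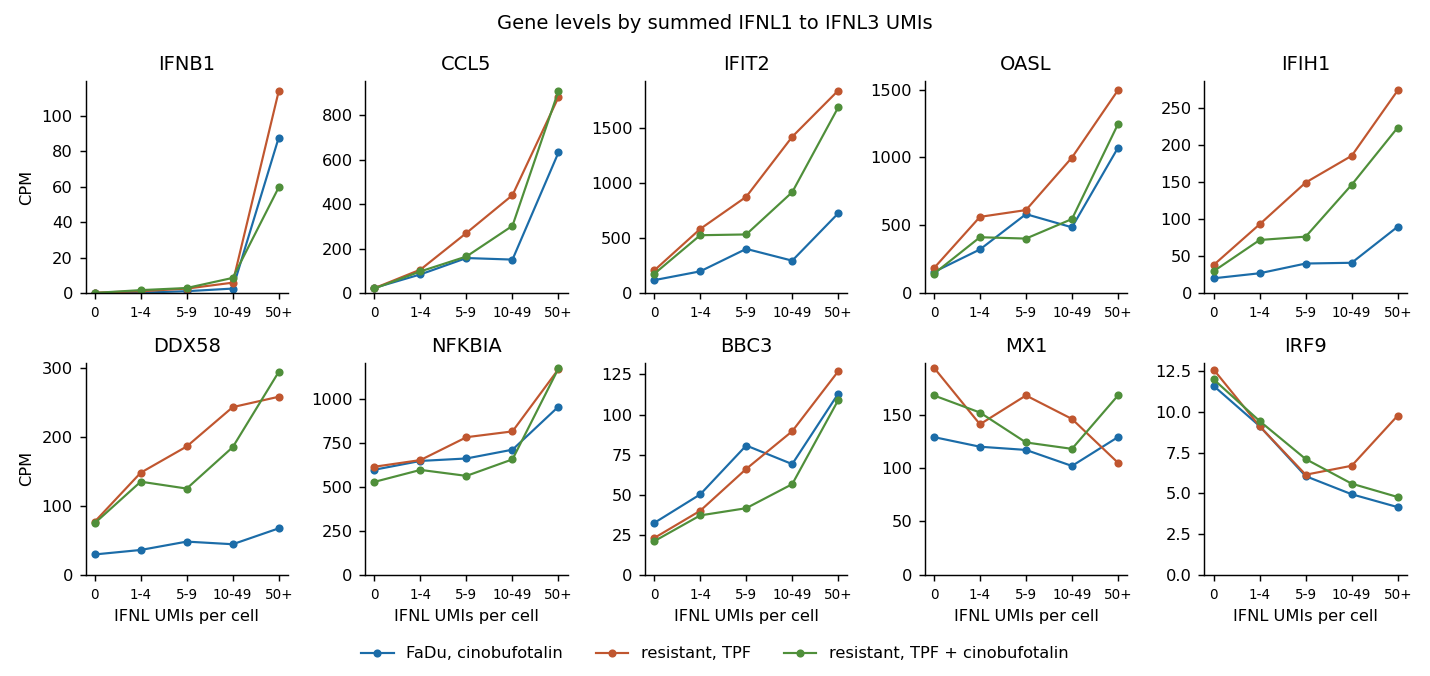
Unscaled CPM (vertical, linear axes from 0) of 10 genes in cells grouped by summed lambda UMIs (horizontal), 1 line per library. IFNB1 lies near 0 until the bin of 50 or more, CCL5, IFIT2, OASL, IFIH1 and BBC3 climb over the bins with a dip or plateau in some libraries, and MX1 shows no common rise.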

How the data were processed

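Single-cell RNA was captured from 3 samples with 10x 3' chemistry, 1 library per group. The deposited files hold counts of UMIs per gene and barcode, made by the authors with Cell Ranger 7.0 on hg38 per the submitters' processing notes. Which annotation was used, and whether strand and intronic reads entered, is not stated in the sources used here. Before filtering, 6888, 6081 and 8888 barcodes held 167448330, 138850198 and 137553238 UMIs over 58735 features. Intervals cover counting error only. The cell rule, its markers and all 26 gene lists were chosen with earlier results of these data known.

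UMIs were summed per library and class (6 sums), IFNL1 to IFNL3 were removed, and genes with a mean of at least 5 CPM were fitted with edgeR 4.0.16 (R 4.3.3; TMM, quasi-likelihood F test, library and class as terms, two-sided, Benjamini-Hochberg over all genes tested, called at adjusted p under 0.05). Ratios are log2 values of producers over cells with 0 lambda UMIs. The fit was tested on simulated counts. Counting, intervals and sums were done in Python 3.11.15 with pandas 2.3.3, numpy 2.4.6 and scipy 1.17.1. Named genes were the markers, 18 genes always shown (1 of them is not reported here), the 12 highest and 12 lowest ratios of one sign in all libraries (mitochondrial, ribosomal protein and clone-named genes excepted), and up to 4 called members of each list. CGAS was matched through its older symbol MB21D1. SOD2 was left out because 2 features share the symbol, as 165 symbols do. No doublet caller was run and free RNA was not corrected for. Upstream sequences came from RefSeq GRCh38.p14, whose table holds no window for CCL5, IFIT2 or OASL.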

Additional observations from a re-analysis of the deposited data

Results flagged for a closer look

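Barcodes outside the filters, which no comparison used, also held lambda RNA. Of 765 such barcodes in the FaDu library 20 held at least 1 UMI of IFNL1, IFNL2 or IFNL3 and 5 held at least 5. Of 1219 in the resistant TPF library 34 held at least 1 and 3 at least 5, and of 1363 in the resistant combination library 51 held at least 1 and 6 at least 5. The lambda UMIs of these 20, 34 and 51 barcodes exceed in each library the 3 that a count of 0 allows, in barcodes that are shallow or rich in mitochondrial RNA. With 1 library per group, no sample was checked as an outlier.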

How the results depend on the processing

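The ratios of CCL5, CXCL10, CXCL11 and OASL stayed called under every setting that could be fitted for them. Those of IFNB1, CCL4L2, CCL3L1, KRT6B and RAET1L did so too, but these genes passed the filter only through producers. They had to differ, so their calls are no support. Of the 96 called genes covered by the naming rule, 87 lost their call without the library block, and 140 further losses were spread over the other settings, 27 of them without the resistant combination library, 25 without the FaDu library and 17 in thinned cells. MT-ATP8 turned to 0.0018 without cells over 2 times the median UMIs. In 5 cases, each 1 gene under 1 setting, a ratio called neither there nor in the main fit changed sign. Calls were gained by MX1 in the pair of settings given above, and by MAVS (-0.41) and MKI67 (-0.27) without scaling factors. With 1 library left out, the genes called higher numbered 442 to 2168 and lower 342 to 2073. The counts of higher and lower genes were 1028 and 821 against cells matched on UMIs, 888 and 308 in thinned cells, 541 and 3480 without scaling factors, 12 and 0 without the block. Calls higher numbered 979 among genes with a mean of at least 20 CPM. Calls lower numbered 904 without cells over 2 times the median UMIs, 804 with producers set at a lambda share of at least 250 UMIs in 1000000, 736 by DESeq2 and 2131 with no filter but 1 UMI. Fewer genes, cells or libraries enter some of these by construction, and the cause was otherwise not tested. The share of producers in library order was 5.40%, 4.00% and 4.12% of all deposited barcodes, 8.15%, 6.13% and 6.39% at a sum of at least 3, 4.18%, 3.70% and 2.95% at 10 or more, and 1.71%, 2.21% and 2.13% after thinning. At that lambda share it was 4.64%, 4.2% and 4.76%, with the resistant combination library then the highest, and it was 4.84% in the FaDu library without cells over 2 times the median UMIs. Labels give no replicate numbers, so no pairing other than by library was possible. At this depth genes under 5 CPM, among them TLR3 and IFNLR1, were not tested.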

Other observations

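The genes named here were chosen after their values were seen. Some genes outside the lists were also called higher in producers. SPRR1B, a cornified envelope protein, stood at 53.2, 55.3 and 24.1 CPM against 13.3, 16.0 and 13.5 CPM (1.58 ± 0.13, edgeR adjusted p = 2.79e-09). S100A9, a subunit of calprotectin, stood at 73.0, 63.1 and 19.2 CPM against 18.7, 21.1 and 18.2 CPM (1.30, edgeR adjusted p = 1.33e-05), so the resistant combination library showed almost no gap, and its partner S100A8 lay lower in producers there, at 3.20 against 5.99 CPM. ETV3, a repressor of the ETS family, stood at 40.2, 84.7 and 64.9 CPM against 12.8, 16.7 and 17.3 CPM (1.97 ± 0.11, edgeR adjusted p = 4.44e-13). PLAUR, the urokinase receptor, was at 537, 359 and 303 CPM against 290, 156 and 152 CPM (1.02 ± 0.10, edgeR adjusted p = 2.84e-08).

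Several genes at least 2-fold higher in producers lie within 500000 bases of one another in the genome (RefSeq GRCh38.p14). How often tested genes at large lie this close was not counted. FAP (chromosome 2, 162170684 to 162243445, minus strand; 3.81), IFIH1 (162267074 to 162318684, minus strand; 2.09) and GCA (162318763 to 162375396, plus strand; 1.34) are consecutive among the protein-coding genes of that stretch. DPP4, GCG and KCNH7, which flank them, were below the level tested. FAP, like KRT6B below, passed the filter only through producers. GCA, a calcium-binding protein, stood at 60, 72.1 and 76.9 CPM against 33.2, 24.1 and 25.4 CPM. Other such neighbours included IFIT2, IFIT3 and IFIT1 on chromosome 10 (2.41, 1.72 and 1.03) and CXCL10 and CXCL11 on chromosome 4 (2.27 and 2.13). On chromosome 12 they included KRT6B and KRT6A (4.57 and 1.26) and HCAR2, HCAR3 and HIP1R (1.51, 1.30 and 2.27). Further pairs were outside such families, among them RNF2 and SWT1 on chromosome 1 (1.05 and 1.62) and SOX6 and PLEKHA7 on chromosome 11 (1.06 and 1.005). HCAR2 and HCAR3 are near-identical copies, so their split is uncertain. These are positions and ratios, and no cause was tested.

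Of the 102 genes at least 2-fold higher, 63 had an upstream RefSeq window, and 13 of these (20.6%) held the motif GAAANNGAAA and 20 (31.7%) the NF-kB consensus. Among all 7877 tested genes with a window the shares were 3.52% and 15.5%, and among the 1153 called higher 5.81% and 16.7%. Of the 102 genes, 30 had passed the filter only through producers and so had to differ, and they were not taken out of these shares. The genes without a window include CCL5, IFIT2 and OASL, so these shares cover only part of the genes, and nothing about binding was measured.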
